A study of Mus musculus with 2 samples.

Results

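The genes described here are the RANK receptor gene Tnfrsf11a, its adaptor gene Traf6 and 6 genes of transcription factors that drive or restrain osteoclast formation, Nfatc1, Mitf, Tfec, Spi1, Prdm1 and Bcl6. They were chosen by name: every non-control probe whose gene name in the scanner files was 1 of these 8 names, or an older name of it, was taken. This gave 14 of 41174 probes, with Tfec filed as Tcfec and Spi1 as Sfpi1. Of the 8 genes, 7 were measured on both arrays through 10 probes, among 16023 genes measured in all. A probe counted as measured where the scanner software called at least 50% of its spots well above background on both arrays.

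Osteoclasts are the bone-resorbing cells that form when macrophage precursors fuse. The cytokine RANKL binds the receptor RANK on the precursor, RANK recruits the adaptor TRAF6, and signals through NF-kappaB, AP-1 and calcium raise the transcription factor NFATc1, which switches on the genes of the mature cell. PU.1 and MITF prepare the macrophage lineage for this switch, and BLIMP1, the product of Prdm1, represses genes such as Bcl6 and Irf8 whose products hold NFATc1 and its target genes down.

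The series measured total RNA of RAW 264.7, a mouse macrophage-like tumour line that RANKL can turn into osteoclast-like cells, on Agilent whole mouse genome arrays in 1 colour. The RCCS group was 1 array of cells kept in the rotary cell culture system, a rotating vessel that models microgravity, for 24 h. The control group was 1 array of ground-based cells handled alongside them. The protocol gives RANKL at 80 ng/ml for 24 h in the same words for both samples and does not settle whether the control cells received it, so differences are between the RCCS and control arrays and nothing more. Both groups are the same transformed line, and each is a single sample of it.

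With 1 array per condition there was no replicate, no test between conditions and no p-value, and the number of arrays limits the precision. Values below are processed signals in the scanner's intensity units, given for RCCS and then control. Log2 ratios are RCCS minus control after each signal was divided by the 75th percentile of its own array, 966 under RCCS and 849 in control. Over all measured genes the log2 ratio had a median of -0.13, and its quartiles were -0.42 and 0.19. Each log2 ratio carries a 95% half-width from the error the scanner software assigned to the spots, which covers neither cultures nor labelling. Over 106 brighter probes printed repeatedly on each array, the SD of the log2 ratio between spots had a median of 0.04, and over 44 dimmer ones 0.22. The assigned half-width had a median of 0.40 over all measured genes, which is wide beside the measured spread of the brighter probes. A difference within that half-width therefore does not show that probes or genes agree. Both arrays lay on the same slide and were scanned together, per the file headers.

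All 8 macrophage marker genes looked at (among them Cd68, Csf1r and Lyz2) and 8 of 9 osteoclast marker genes were measured on both arrays. The macrophage markers had a median log2 ratio (RCCS minus control) of 0.06, with 7 of 8 above 0 and 1 below. Cd68, Csf1r and Lyz2 were at 0.005, 0.05 and 0.08. Itgam, another of the 8, was 4.00-fold higher under RCCS, the 1 macrophage marker past 2-fold upward, and 0 passed it downward. The osteoclast markers had a median log2 ratio (RCCS minus control) of -0.54, beside -0.13 for all genes, with 6 of 8 below 0. At 1.5-fold, 4 of the 8 were lower (beside 14.8% of all genes) and 1 higher (beside 9.74%). Mmp9, 1 of the 4, was at -0.66 but at -0.08 with its brightest probe. The summed signals of the osteoclast markers, before scaling, were 14963 under RCCS and 11625 in control. Calcr, the calcitonin receptor gene of mature osteoclasts, passed the background call under RCCS alone, at 23.6 against 14.5 in control. The lowest probe so called read 21.2 under RCCS and 24.2 in control. A reading of 23.6 lies below every probe so called in control, so the call does not show a higher level. Of 20 markers of T cells, B cells, osteoblasts and stroma, and neutrophils on the array, 8 were measured on both arrays, 4 on 1 array only and 8 on neither (Cd3d, Cd8a, Cd79b, Ms4a1, Alpl, Elane, Camp and S100a9). Their highest signals were 168 under RCCS, for Runx2, and 149 in control, for Cd3e. Runx2, measured through 1 of its 4 probes, read 31.9 in control, a log2 ratio of 2.21. Cd3e read 104 under RCCS, a log2 ratio of -0.70. Cd3g, at 1.21, also passed 2-fold upward, and none of these markers passed it downward. The summed signals on RCCS and control were 349 and 328 for the T cell list, 266 and 231 for the B cell list, 345 and 168 for the osteoblast and stroma list, and 100.4 and 96.3 for the neutrophil list, and the part of these and the osteoclast markers in the results below was not tested. In RNA of a whole culture, fewer cells of a kind and less RNA per cell cannot be told apart.

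None of the 7 measured genes differed by 2-fold. The count was 0 at least 2-fold higher under RCCS, where 3.88% of all measured genes were, and 0 at least 2-fold lower, where 3.76% were. At 1.5-fold, Tfec and Bcl6 were higher, 2 of 7 beside 9.74% of all genes, and Spi1 was lower, 1 of 7 beside 14.8%. The genes went in both directions, from -0.72 for Spi1 to 0.76 for Tfec, with 4 above 0 and 3 below and a median of 0.02.

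**Figure D1:**
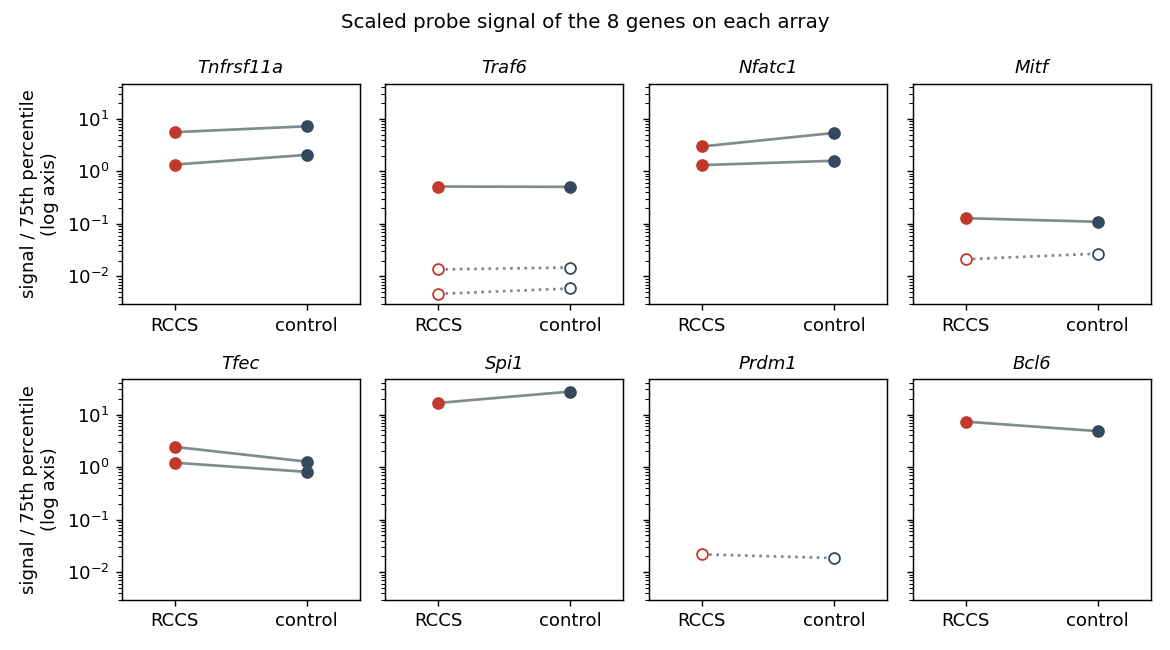
Signal of each probe of the 8 genes divided by the 75th percentile of its array, on a log axis, with RCCS on the left and control on the right of each panel. Filled points are the 10 probes measured on both arrays, with the scanner's spot error as bars (often smaller than the point), and open points joined by dotted lines are the 4 probes not well above background. Both probes of Tnfrsf11a and Nfatc1 were lower on the RCCS array and both of Tfec higher.

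Tnfrsf11a, on chromosome 1, encodes RANK, the receptor through which RANKL acts. Its brighter probe read 5377 under RCCS and 6115 in control. Its other probe, which lies 2355 bases away in the files' coordinates, read 1297 under RCCS and 1748 in control. Both probes were lower on the RCCS array after scaling, at log2 ratios of -0.37 and -0.62, and their difference of 0.25 was within its 95% half-width of 0.57. The mean was -0.49 ± 0.28 (95% half-width), or 1.41-fold lower. Relative to the median gene this was -0.36, and 42.6% of all measured genes lay at least as far from that median.

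Traf6, on chromosome 2, encodes the ubiquitin ligase that RANK recruits to start NF-kappaB and MAP kinase signalling. Its probe for the reference transcript read 496 under RCCS and 429.8 in control, a log2 ratio of 0.02 ± 0.40. The level did not differ beyond spot error, and the interval of the difference runs from -0.38 to 0.42. Both other probes filed under Traf6 stand for full-length cDNA clones with no reference transcript of the gene. They read 13.1 and 4.49 on the RCCS array and 12.6 and 5.02 on the control array, none of them well above background.

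Nfatc1, on chromosome 18, encodes the main transcription factor of osteoclast differentiation, which calcineurin activates and which acts on its own gene. The probe filed under transcript variant 1 read 2873 under RCCS and 4570.3 in control, a log2 ratio of -0.86 ± 0.40 or 1.81-fold lower. The probe filed under transcript variant 2 read 1269 under RCCS and 1351 in control, a log2 ratio of -0.28 ± 0.40. Both were lower on the RCCS array, by unequal amounts. The difference between the probes was -0.58 with a 95% half-width of 0.57, so it slightly exceeded the spot error that the software assigned.

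The Nfatc1 probes lie 41775 bases apart in the files' coordinates, and the order of those coordinates places the variant 1 probe on the upstream side. Transcripts of this gene are known to differ in their first exon and in where they end, and which transcripts each probe detects was not tested. The mean of both probes was -0.57 ± 0.28, or 1.48-fold lower, and -0.44 relative to the median gene. As far from that median lay 34.9% of all measured genes. Taking the brighter probe alone gave -0.86.

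Mitf and Tfec, both on chromosome 6, encode related basic helix-loop-helix factors of the MiT family, which bind E-box letters and form dimers with each other. MITF is needed for osteoclast maturation, and TFEC is the member whose expression is largely limited to macrophages and osteoclasts. Mitf was dim, but its main probe was printed 10 times on each array, so spot error could be measured directly. Leaving out 2 spots flagged as outliers, the RCCS spots ran from 115 through a median of 121 to 141, and the control spots from 83.4 through 94.2 to 103. These ranges did not overlap, but once each spot was divided by the 75th percentile of its array they did, at 0.119 to 0.146 under RCCS and 0.0981 to 0.121 in control.

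After scaling, the Mitf log2 ratio was 0.22 ± 0.09 (SD over 8 spots of the same arrays, which are not replicates), from 0.14 to 0.38. With all 10 spots it was 0.25 ± 0.14 (SD), and all 10 were above 0. The other Mitf probe, 12199 bases away, was not well above background at 20.5 under RCCS and 23.0 in control. Averaging in that dim probe put the gene at -0.065, and normexp background correction put it at 0.062, so its direction depends on how dim signal is treated.

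**Figure D2:**
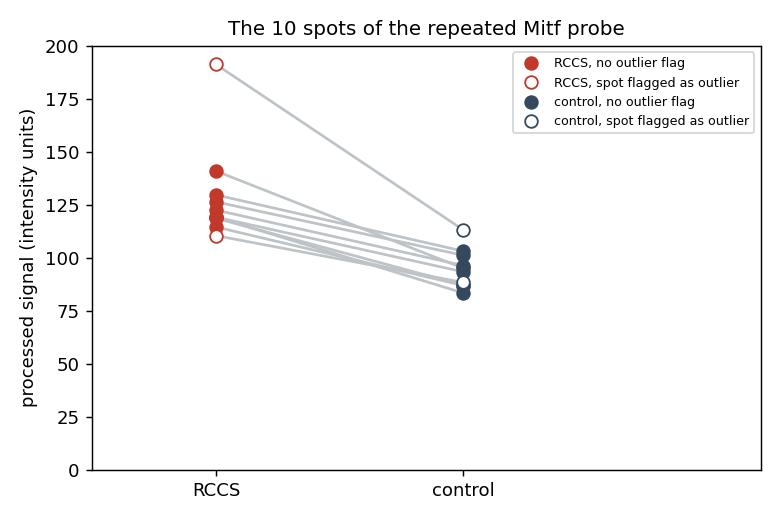
Processed signal in intensity units of the 10 spots of the repeated Mitf probe on the RCCS array (left) and the control array (right), with lines joining spots at the same position. Open points are the 2 spots flagged as outliers. The unflagged RCCS spots lie between 115 and 141 and the control spots between 83.4 and 103, before the arrays were scaled.

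Tfec had the highest log2 ratio of the 7 measured genes as reported, while under quantile normalization Bcl6 was at 0.80 and Tfec at 0.79. Its brighter probe read 2344 under RCCS and 1079 in control, a log2 ratio of 0.93 ± 0.40. Its other probe, 11657 bases away, read 1170.4 under RCCS and 689 in control, a log2 ratio of 0.58 ± 0.40. Both probes were thus higher on the RCCS array, and their difference of 0.36 was within its half-width of 0.57. The mean was 0.76 ± 0.28, or 1.69-fold higher, and 0.89 relative to the median gene. Of all measured genes, 10.1% lay at least as far from that median, and 6.49% had a higher log2 ratio. Scaled on the spike-in probes, Tfec came to 1.07, the single setting in which any of the 7 measured genes passed 2-fold.

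Spi1, on chromosome 2, encodes PU.1, the ETS factor that sets up the macrophage lineage and drives the genes of both RANK and the M-CSF receptor. Its log2 ratio was the lowest of the 7 measured genes as reported, and Nfatc1 was lower with the brightest probe (-0.86) or quantile normalization (-0.46). Its probe read 16063 under RCCS and 23233 in control, a log2 ratio of -0.72 ± 0.40 or 1.64-fold lower. Relative to the median gene this was -0.59, and 22.8% of all measured genes lay at least as far from that median. A lower log2 ratio was found in 9.59% of all measured genes. Spi1 was below 0 in all 11 alternative settings, from -0.74 to -0.41. It came under 1.5-fold when scaled on spike-in probes (-0.41), by quantiles (-0.45) or at the 75th percentile of measured probes (-0.58).

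Prdm1, on chromosome 10, encodes BLIMP1, a zinc finger repressor that removes brakes on osteoclast formation. Its probe read 21.1 under RCCS and 15.8 in control, not well above background on either, where the lowest probe so called read 21.2 under RCCS and 24.2 in control. No ratio is therefore given for it. Bcl6, on chromosome 16, encodes a repressor that BLIMP1 holds down in mouse osteoclast precursors and that itself represses Nfatc1 and other osteoclast genes. Its probe read 7082 under RCCS and 4107 in control. The log2 ratio was 0.60 ± 0.40, or 1.52-fold higher, and 0.73 relative to the median gene. At least as far from that median lay 15.3% of all measured genes. The log2 ratio of Bcl6 was above 0 in all 11 alternative settings, from 0.60 to 0.91. Bcl6 has 1 probe with 1 spot. Settings that only filter dim probes, pick the brightest probe or take ratios spot by spot could therefore not move it. The same holds for Spi1. The count of genes 1.5-fold higher rests in part on the Bcl6 value, which lies close to that threshold.

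**Figure D3:**
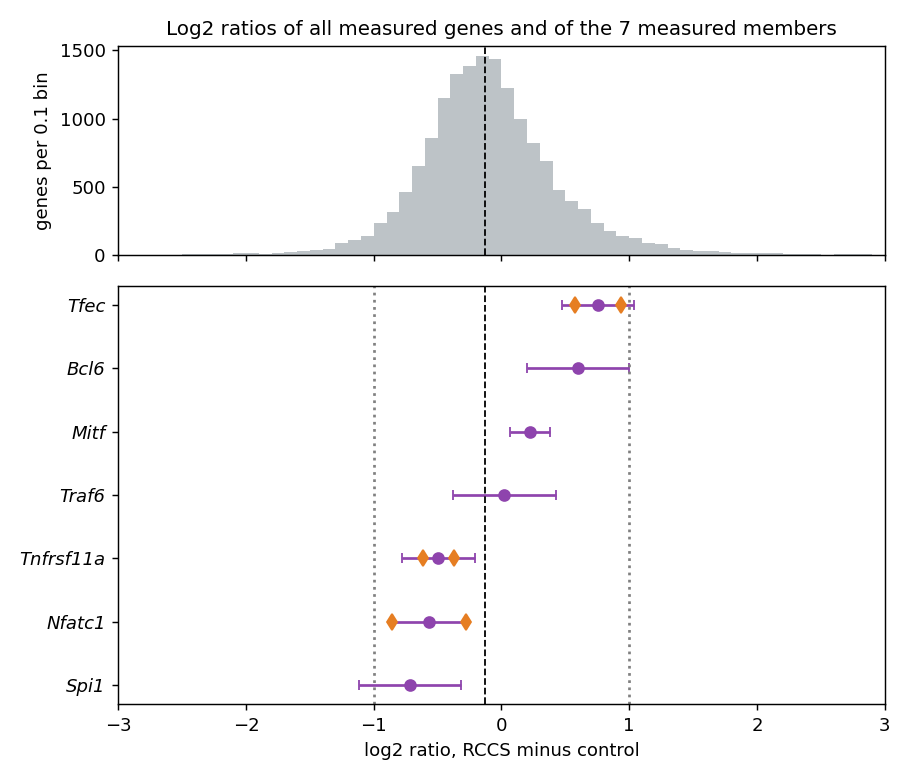
Top, the log2 ratios (RCCS minus control) of all 16023 measured genes in bins of 0.1, within the plotted range. Bottom, the 7 measured members as points with 95% intervals from the scanner's spot error, and the single probes of genes with more than 1 measured probe as diamonds. The dashed line is the median gene at -0.13 and dotted lines mark 2-fold. Tfec and Bcl6 lie highest, Spi1 lowest, and none passes 2-fold.

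Set against the median of all measured genes in place of 0, Traf6 was the member whose interval still held that median, and the intervals of the other 6 did not. In order, the log2 ratios were Tfec 0.76, Bcl6 0.60, Mitf 0.22, Traf6 0.02, Tnfrsf11a -0.49, Nfatc1 -0.57 and Spi1 -0.72. Neighbours in this order differed by less than the 95% half-width of their difference from spot error, except Traf6 and Tnfrsf11a, which differed by 0.52 with a half-width of 0.49. In RNA, Tnfrsf11a, Spi1 and Nfatc1 were thus on the lower side and Tfec and Bcl6 on the higher side of these arrays. Protein was not measured.

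**Figure D4:**
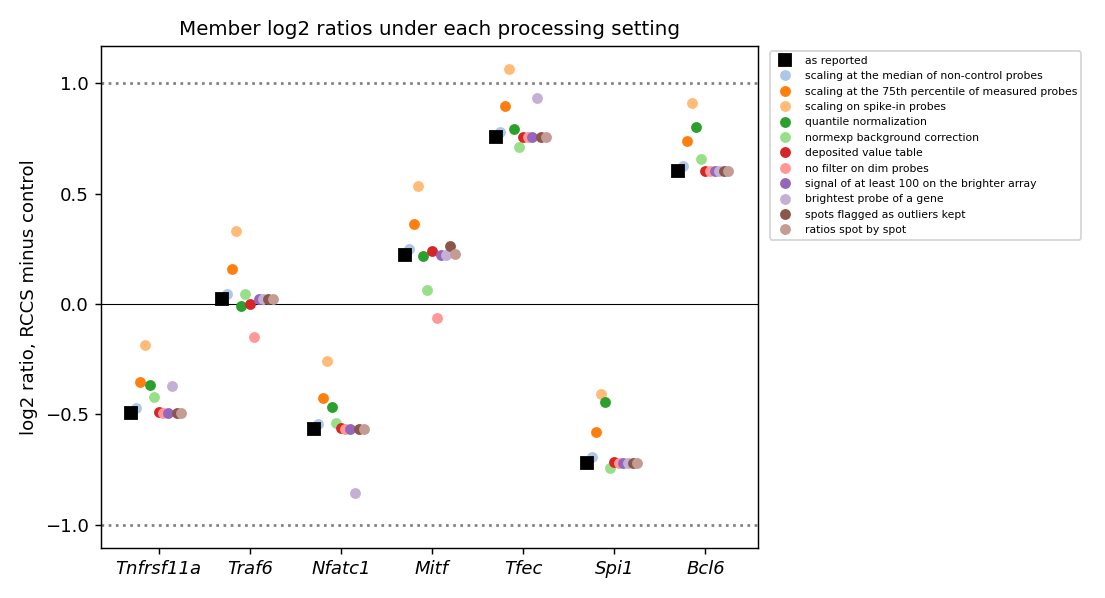
Log2 ratio (RCCS minus control) of the 7 measured members as reported (black squares) and under 11 alternative settings (coloured points). Dotted lines mark 2-fold. Tnfrsf11a, Nfatc1 and Spi1 stay below 0 and Tfec and Bcl6 above 0 in each, and Traf6 and Mitf have points on both sides.

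The promoters of Tfec and Bcl6, the members at least 1.5-fold higher, are shown because members of this group are known to act on each other's genes. Of the 8 genes, 6 had an entry in the promoter table, and Nfatc1 and Spi1 are named only. The stretches are RefSeq sequences of build GRCm38.p6, cut to the bases upstream of every annotated start, with matches to motif letters in capitals. The letters searched on both strands were GAGGAA (the core bound by PU.1), CANNTG (the E-box of MiT factors), TGANTCA (AP-1) and GGAAA (the core bound by NFAT), with CACGTG and CATGTG as forms of the E-box. Tfec is at chr6:16898465-16898691 on the minus strand and Bcl6 at chr16:23988867-23989102 on the minus strand.
Tfec: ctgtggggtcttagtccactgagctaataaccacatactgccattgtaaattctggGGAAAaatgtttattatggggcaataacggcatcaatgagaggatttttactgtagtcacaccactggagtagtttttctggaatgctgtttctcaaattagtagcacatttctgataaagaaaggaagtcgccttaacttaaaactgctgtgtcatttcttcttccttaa
Bcl6: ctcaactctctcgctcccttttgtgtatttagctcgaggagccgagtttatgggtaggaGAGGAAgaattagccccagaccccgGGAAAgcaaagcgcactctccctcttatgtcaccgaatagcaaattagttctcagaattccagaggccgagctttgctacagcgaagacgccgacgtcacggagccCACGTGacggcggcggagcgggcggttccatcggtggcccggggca

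The printed Tfec stretch held a GGAAA match 194 bases before the start and none of the other letters. Distances here are counted to the start on which each promoter window was set, which lies past the end of the printed stretch. The full 300-base Tfec window, which runs past the printed stretch, held 1 GAGGAA and 2 GGAAA matches and 0 of the other letters. The printed Bcl6 stretch, 1 of 2 promoters in the table, held GAGGAA 191 bases, GGAAA 166 bases and CACGTG 60 bases before the start. The other Bcl6 promoter window, at chr16:23981234-23981533, held 4 GGAAA matches and 0 of the other letters in its 300 bases. Of 32851 mouse promoter windows cut to the 227 bases of the Tfec stretch, 52.3% held GGAAA, 21.1% GAGGAA, 63.1% CANNTG, 6.28% TGANTCA, 11.4% CATGTG and 5.23% CACGTG. Cut to the 236 bases of the Bcl6 stretch, 53.4% held GGAAA, 21.9% GAGGAA, 64.3% CANNTG, 6.50% TGANTCA, 11.7% CATGTG and 5.52% CACGTG. Matches of the NFAT and PU.1 letters can overlap each other, and the 2 named E-box forms are also CANNTG matches. These are matches of letters and not binding sites.

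The partners of RANK and TRAF6 were described from a list of 15 genes, of which 13 were measured, 0 of them 2-fold or more higher (beside 3.88% of all genes) and 2 of them 2-fold or more lower (beside 3.76%). The list median was -0.07, beside -0.13 for all genes. Tnfsf11, which encodes RANKL, read 4.73 under RCCS and 5.37 in control, and Tnfrsf11b, which encodes its decoy receptor osteoprotegerin, read 10.4 and 18.2, none of them well above background. Traf1, a TRAF family relative, was 4.52-fold lower, at 2504 under RCCS and 9945 in control. Lgr4, another receptor for RANKL, was at -1.77 but dim, with 22.5 under RCCS and 67.6 in control, and at -0.46 without a filter on dim probes. Sqstm1, the scaffold p62 that binds TRAF6, was at 0.92.

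Among 15 measured NF-kappaB and AP-1 genes, which act between RANK and NFATc1, 1 passed 2-fold upward (beside 3.88% of all genes) and 2 passed it downward (beside 3.76%), and the median was -0.24. Jdp2, an AP-1 family factor that osteoclasts need, read 8317 under RCCS and 29643 in control (-2.02). Nfkb2, of the alternative NF-kappaB pathway, was at -1.52. Jun was at 1.06, and at 0.83 with normexp background correction. Fos, needed for the induction of Nfatc1, was at -0.45 ± 0.13. Of the 10 genes of the costimulatory pathway, which raises calcium beside RANK, Syk, its tyrosine kinase, was 3.48-fold higher, at 3319 under RCCS and 838 in control. It was the 1 gene of that list past 2-fold upward, beside 3.88% of all genes, and 0 were at least 2-fold lower, beside 3.76%. The median of that list was 0.08.

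Calcineurin and NFAT genes, 16 measured of 16, had a median of -0.24, and 0 passed 2-fold upward (beside 3.88% of all genes) and 1 downward (beside 3.76%). That gene was Rcan1, which encodes a calcineurin regulator and is itself a known NFAT target, at -1.02 ± 0.28, and it came under 2-fold in 6 of 11 alternative settings (-0.71 when scaled on spike-in probes). Of 12 measured genes that NFATc1 or MITF are known to drive in osteoclasts, 3 passed 2-fold upward (beside 3.88% of all genes) and 1 downward (beside 3.76%), and the median was -0.17. At 1.5-fold, 4 were higher (beside 9.74%) and 4 lower (beside 14.8%). The higher ones were Gpnmb, a membrane glycoprotein gene driven by MITF (30681 under RCCS and 8769.7 in control, 3.44-fold), Ctsk (cathepsin K, 2.33-fold) and Ostm1 (a partner of the chloride exchanger, 2.02-fold, and 0.96 on the log2 scale with normexp background correction). The lower gene was Dcstamp, needed for precursor fusion, at 481 under RCCS and 1297 in control (3.07-fold). Atp6v0d2, a subunit gene of the proton pump, was at -0.96 and Ocstamp, another fusion gene, at -0.95. Mmp9, a matrix metalloproteinase gene, was at -0.66, and at -0.08 with its brightest probe. In this list 2 genes passed 2-fold downward with quantile normalization or the brightest probe. Acp5, the tartrate-resistant acid phosphatase, was at 0.06 ± 0.40. This list holds all 9 osteoclast markers described above, and the 4 genes 1.5-fold lower are the same in both. The values of the 2 lists are therefore not separate results.

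The other MiT genes and their cytoplasmic regulators were 9 measured of 9, of which 2 passed 2-fold upward (beside 3.88% of all genes) and 0 downward (beside 3.76%), and the median was 0.34. Those 2 were Fnip1 (1.14, with 4 probes from 0.38 to 1.49) and Fnip2 (1.08, filed under an older name), whose products act with folliculin in holding TFE3 and TFEB in the cytoplasm. Tfe3 was at 0.44 ± 0.40 and Tfeb at -0.30 ± 0.41, and Tfeb came to 0.01 when scaled on spike-in probes. Of 16 measured relatives, partners and myeloid targets of PU.1, 3 passed 2-fold upward (beside 3.88% of all genes) and 0 downward (beside 3.76%), and the median was 0.36, while Spi1 itself was at -0.72. The upward count was 6 when scaled on spike-in probes or by quantiles, and 5 when scaled at the 75th percentile of measured probes. Itgam, an integrin subunit of macrophages, was 4.00-fold higher, Msr1, a scavenger receptor, 2.41-fold and Irf8, a DNA-binding partner of PU.1, 2.21-fold. The brightest probe of Msr1 gave 0.93. Csf1r, the M-CSF receptor gene, was at 0.05 ± 0.23, with 3 probes from -0.40 to 0.33.

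Repressors of osteoclast formation and corepressors of BCL6 had a median of 0.41 over 9 measured genes. In this list 4 genes passed 2-fold upward (beside 3.88% of all genes) and 0 downward (beside 3.76%). Id1 read 5801 under RCCS and 370.4 in control (13.8-fold higher). Id2 was 3.84-fold and Id3 2.54-fold higher. Irf8 read 1894 under RCCS and 726 in control, and each of these 4 genes passed 2-fold upward in all 11 alternative settings. Bcl6 and Irf8, which BLIMP1 is known to repress in mouse osteoclast precursors, were thus at 0.60 and 1.14, while Prdm1 was not measured. The BCL6 corepressor genes Ncor1, Bcor and Hdac3 lay between -0.40 and 0.39.

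**Figure D5:**
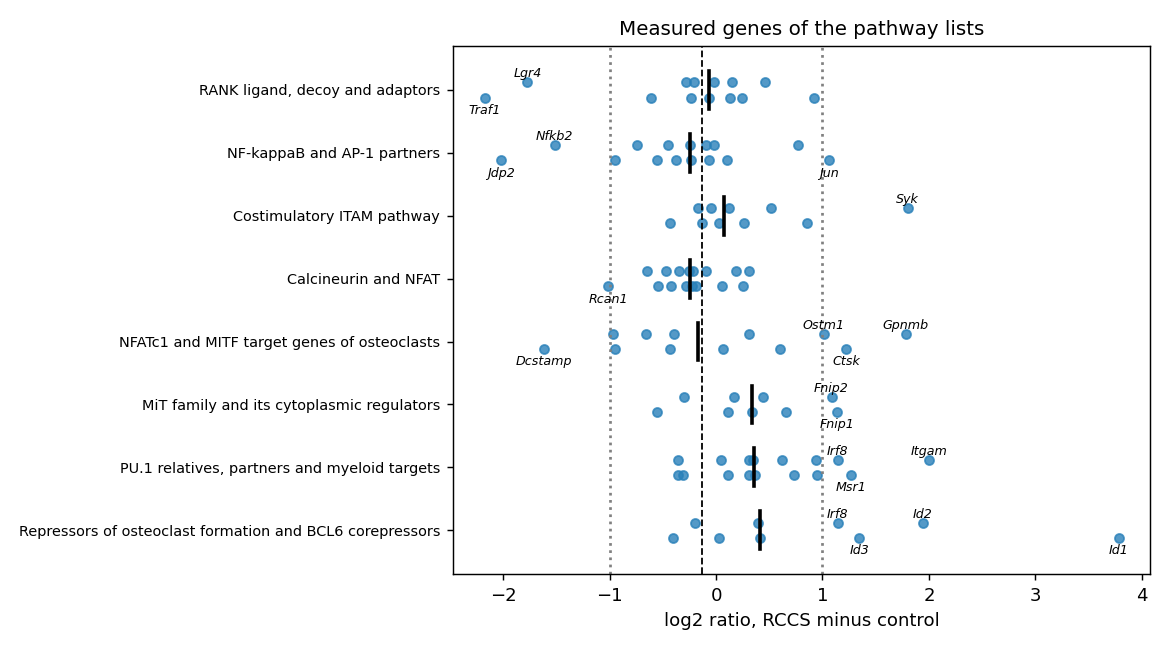
Log2 ratio (RCCS minus control) of each measured gene of the 8 pathway lists, with the list median as a black bar and genes at least 2-fold apart named. The dashed line is the median of all measured genes at -0.13 and dotted lines mark 2-fold. The repressor list reaches 3.78 (Id1) and the adaptor list -2.17 (Traf1).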

How the data were processed

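Total RNA of RAW 264.7 cells was measured on 2 arrays, 1 RCCS and 1 control. Spot values were deposited as linear intensities, made with Agilent Feature Extraction 9.5.3.1, background-subtracted and detrended and not scaled between arrays, per the file headers. The authors also deposited a ratio per probe and array. Set against the scanner values it is each signal relative to its own array with a lowest value of 0.01, with its making not given in the sources used here.

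Spots flagged as outliers on either array were left out (117 on the control and 120 on the RCCS array carried a flag, and 3 probes had no spot left), spots of a probe were averaged, and log2 of the processed signal was scaled at the 75th percentile over non-control probes. Measured probes of a gene were averaged on the log2 scale. Accessions of 22943 probes took a symbol from the RefSeq table of GRCm38.p6, and the others kept the file's name. Genome coordinates of probes are not printed (array build not given in the sources used here). No test was possible with 1 array per condition, so counts past 2-fold are set beside the same share of all measured genes. The calculation was tested on simulated data. Python 3.11.15 and limma 3.58.1 (normexp) were used. Named genes are the 8 members, up to 4 genes of each pathway list with an absolute log2 ratio of at least 1, 8 genes fixed with the lists, and others named after their values were seen. The members and lists were chosen with earlier results of these data known, and 2 listed genes are not reported here and were left out of list counts and medians. The alternatives are given in the closing section.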

Additional observations from a re-analysis of the deposited data

How the results depend on the processing

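Each of the 7 measured members was recomputed under 11 alternative settings, and 70 of 77 values stayed within the 95% spot error of the value reported. Some of these values could not move. Bcl6 and Spi1, with 1 bright probe of 1 spot, keep the same value under dim-probe filters, the brightest probe and spot-by-spot ratios. Tnfrsf11a, Nfatc1 and Tfec keep theirs under dim-probe filters and spot-by-spot ratios. Scaling at the median of non-control probes moved every log2 ratio by 0.02, and at the 75th percentile of measured probes by 0.14. Both shifts are below the smallest half-width of a member, 0.16, so these settings could only count as the same. The count of 70 is thus not a measure of how stable the values are. Among the settings, log2 ratios taken spot by spot was chosen after seeing the data. Scaling on 7 of 10 spike-in probes raised every log2 ratio by 0.31, which put Tfec at 1.07, Mitf at 0.53, Tnfrsf11a at -0.18 and Nfatc1 at -0.26 and made 1 member at least 2-fold higher. It also turned the split of all genes past 2-fold to 1201 higher and 261 lower (82.1% higher), against 622 and 603 (50.8%) as reported. With the 75th percentile of measured probes 66.7% of these calls were higher (833 and 416, median shift 0.14). Without a filter on dim probes the split was 1607 and 1803, the median shift -0.12 and Mitf -0.065. Normexp background correction gave 364 and 346 and put Mitf at 0.062. The brightest probe put Nfatc1 at -0.86, since it is 1 of 2 unequal probes. At 1.5-fold, 2 members were higher and 1 lower. Tfec and Bcl6 were above 0, and Tnfrsf11a, Nfatc1 and Spi1 below 0, in all 11. Counts past 2-fold moved in 7 of 8 lists, and in 0 settings for the repressor list. Medians of the adaptor, NF-kappaB and AP-1, calcineurin and target gene lists changed sign in 1 or 2 settings, and those of the other 4 lists in 0. Where no cause is stated, the cause was not tested. No paired analysis was possible because each condition had 1 array, and no replicate could be left out. Prdm1 was not called well above background on either array and has no ratio, and dim genes that passed that call, such as Lgr4, carry wide spot error.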

Other observations

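Among relatives and regulators of NFATc1, probes of the same gene differed for some genes. The 3 probes of Nfatc3 ran from -1.38 to 0.08, both probes of Nfatc4 stood at -1.08 and 0.22, and the 3 probes of Ppp3r1, the calcineurin regulatory subunit gene, ran from -0.84 to 0.03. Of the 4 probes of the catalytic subunit gene Ppp3cb, all lay between -0.55 and -0.39. These genes were named after their values were seen, and which transcripts their probes detect was not tested.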
